A study of Mus musculus with 30 samples.

Results

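The NRF2 and BACH1 antioxidant response was described by 10 genes, taken from the expression table by symbol. These were the regulators Nfe2l2, Keap1 and Bach1, and the target genes Srxn1, Txnrd1, Gclc, Gclm, Slc7a11, Nqo1 and Osgin1. All 10 were among the 21841 genes of the table, and all 10 were among the 13663 genes with enough reads to be tested. Bulk RNA sequencing had been performed on breast tumours of MMTV-PyMT mice, FVB/N-Tg(MMTV-PyVT)634Mul/J by their labels, with WT entered as genotype. In these mice the promoter of mouse mammary tumour virus drives the polyoma middle T antigen in the mammary epithelium and tumours arise spontaneously. The 30 libraries formed 6 groups of 5 tumours, given vehicle, 5-fluorouracil (5-FU) or gemcitabine, each either without KCL-HO-1i or with it. The treated groups are called KCL-HO-1i (the drug with no chemotherapy), KCL-HO-1i/5-FU and, for the other combination, KCL-HO-1i/gemcitabine. All mice in these groups carried the same transgene and were dosed by intraperitoneal injection, with tumours taken at 72 hours by the labels. KCL-HO-1i, a tin mesoporphyrin in a phosphate salt form that inhibits heme oxygenase-1, was given at 25 µmol/kg every day. The cytotoxic drug 5-FU was given at 40 mg/kg at intervals of 4 days and the nucleoside analogue gemcitabine at 64 mg/kg at intervals of 7 days. The study's own text names a shorter treatment and a lower gemcitabine dose, and the ages of the mice were not used here. The study describes its cohorts as having as many mice as tumours, while the labels tie no tumour to a mouse, and the p-values measure the spread between these tumours.

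NRF2, encoded by Nfe2l2, is the transcription factor that switches on antioxidant and detoxification genes under oxidative or electrophilic stress. In resting cells KEAP1 binds NRF2 and hands it to a ubiquitin ligase for degradation, and modification of KEAP1 cysteines lets NRF2 accumulate, so that much of the control is at the protein and not at the RNA. BACH1 binds the same DNA element, called the antioxidant response element, and represses the genes there until heme binds BACH1 and releases it. Hmox1, the gene of heme oxygenase-1 and the target of the drug, is the best known gene under joint control of both factors and served here as the reference to which the 10 genes were compared.

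The 3 target genes with the smallest p-values under KCL-HO-1i were Srxn1, Gclm and Slc7a11, and their promoters are shown for that reason. The sequences are the 250 bases before an annotated transcript start in RefSeq. They are from GRCm38.p6, the same chromosome sequence as the mm10 build named in the processing notes of the submitters. For Gclm and Slc7a11 that start lay inside the span of the gene and not at its outer end. They were searched on both strands for the antioxidant response element core in its 2 forms, TGACNNNGC and TGAGNNNGC, and for the AP-1 type core TGAGTCA, which can overlap the second form. Capitals mark the matches. Srxn1 lay on the plus strand at chr2:152105274-152105523, Gclm on the plus strand at chr3:122245307-122245556 and Slc7a11 on the minus strand at chr3:50443614-50443863.
Srxn1: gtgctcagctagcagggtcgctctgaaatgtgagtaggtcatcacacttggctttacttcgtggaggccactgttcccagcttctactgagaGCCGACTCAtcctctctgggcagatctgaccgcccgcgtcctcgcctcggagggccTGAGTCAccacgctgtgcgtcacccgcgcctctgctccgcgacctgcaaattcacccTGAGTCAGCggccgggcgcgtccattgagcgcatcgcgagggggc
Gclm: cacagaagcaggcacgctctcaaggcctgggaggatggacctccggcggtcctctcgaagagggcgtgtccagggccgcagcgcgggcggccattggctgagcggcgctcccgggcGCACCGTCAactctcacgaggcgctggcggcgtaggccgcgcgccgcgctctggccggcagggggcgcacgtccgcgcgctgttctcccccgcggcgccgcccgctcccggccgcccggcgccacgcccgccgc
Slc7a11: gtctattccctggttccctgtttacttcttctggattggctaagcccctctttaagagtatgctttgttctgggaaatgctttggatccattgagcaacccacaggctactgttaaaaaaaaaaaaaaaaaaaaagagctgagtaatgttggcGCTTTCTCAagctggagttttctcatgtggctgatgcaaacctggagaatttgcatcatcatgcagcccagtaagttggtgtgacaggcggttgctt
The Srxn1 window held a TGAGTCAGC match in the 50 bases nearest the start, overlapping an AP-1 type core, a further AP-1 type core farther upstream, and a match on the other strand, GCCGACTCA, upstream of both. The Gclm window held 1 match, GCACCGTCA, and the Slc7a11 window held 1 match, GCTTTCTCA, both on the other strand. Of the members, 9 had a window in the table, with 11 windows in all, and there was no entry for Gclc. An antioxidant response element core in either form was found for 6 of these 9, namely Nfe2l2, Gclm, Txnrd1 (in 1 of its 3 windows), Srxn1, Slc7a11 and Osgin1, against 23.0% of the 32851 promoter windows in the table. The AP-1 type core was found for Srxn1 and Osgin1, and in 4.46% of all windows. The counts take a member with a match in any of its windows, while the shares are of single windows, so the 2 measures are unlike. The members were also chosen as genes of this pathway, so these counts are no result of the tumour data. A match is a stretch of letters and not a measured binding site.

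Levels are given as CPM (counts scaled in the usual way to the library size, here adjusted by TMM), and differences as log2 fold changes with their SE from edgeR's quasi-likelihood fit over all 30 libraries. Library totals ran from 10067577 to 13622264 reads, so that 1 read was worth 0.0717 to 0.101 CPM. The libraries were whole tumours, and fewer cells of a type cannot be told apart from less RNA per cell. None of the 6 luminal epithelial markers was at 0 throughout a group. Markers of other tissue moved with KCL-HO-1i. Averaged over its 3 backgrounds, 6 of 6 adipocyte, 6 of 6 skeletal muscle, 6 of 6 fibroblast, 6 of 7 macrophage and 4 of 6 endothelial markers were higher at an unadjusted p under 0.05, with median log2 differences of 2.35, 3.35, 1.57, 0.78 and 0.72, and 1 of 6 luminal markers was lower (median -0.15). The backgrounds were unlike in this. Against 5-FU, KCL-HO-1i/5-FU had 0 of 6 adipocyte and 0 of 6 skeletal muscle markers under that limit, with medians of 0.32 and -2.30, and the summed muscle markers had a median of 1.65 CPM with and 57.05 CPM without the drug. Of the fibroblast, macrophage and endothelial markers 1 of 6, 0 of 7 and 0 of 6 were higher there (medians 0.89, 0.44 and 0.48). Against vehicle, KCL-HO-1i alone had 6 of 6 adipocyte and 6 of 6 muscle markers higher (medians 4.21 and 6.98), and in the gemcitabine background these counts were 1 of 6 and 6 of 6 (medians 2.47 and 5.54). The tumour of KCL-HO-1i/5-FU replicate 3 stood apart from its group in CPM for Hmox1, Srxn1, Slc7a11 and Gclc. The main values it enters are given with and without it.

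In the average of KCL-HO-1i over its 3 backgrounds (vehicle, 5-FU and gemcitabine), the response was uneven, with the largest differences in Slc7a11, Srxn1, Nqo1 and Gclm and differences near 0 in Nfe2l2 and Keap1. None of the 10 members passed an adjusted p of 0.05 in edgeR, where 0.0586% of all genes did (8 genes, Hmox1 being the first of them by p). The fits with limma-voom (with sample quality weights, which lower the weight of outlying libraries) and DESeq2 each called 2 members, Srxn1 and Gclm, but these fits also called more of all genes, 1.95% and 8.38%. In edgeR 3 members were under an unadjusted p of 0.05, Srxn1, Gclm and Slc7a11, all higher. The background was high, with 23% of all genes under that limit in either direction and 13.7% under it and higher. All 10 log2 fold changes were above 0, where 49.8% of all genes were, and their median was 0.18, where that of all genes was -0.0007. The count under an unadjusted p of 0.05 went from 3 to 2, Srxn1 and Gclm, when KCL-HO-1i/5-FU replicate 3 was left out (18.2% of all genes in either direction).

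**Figure D1:**
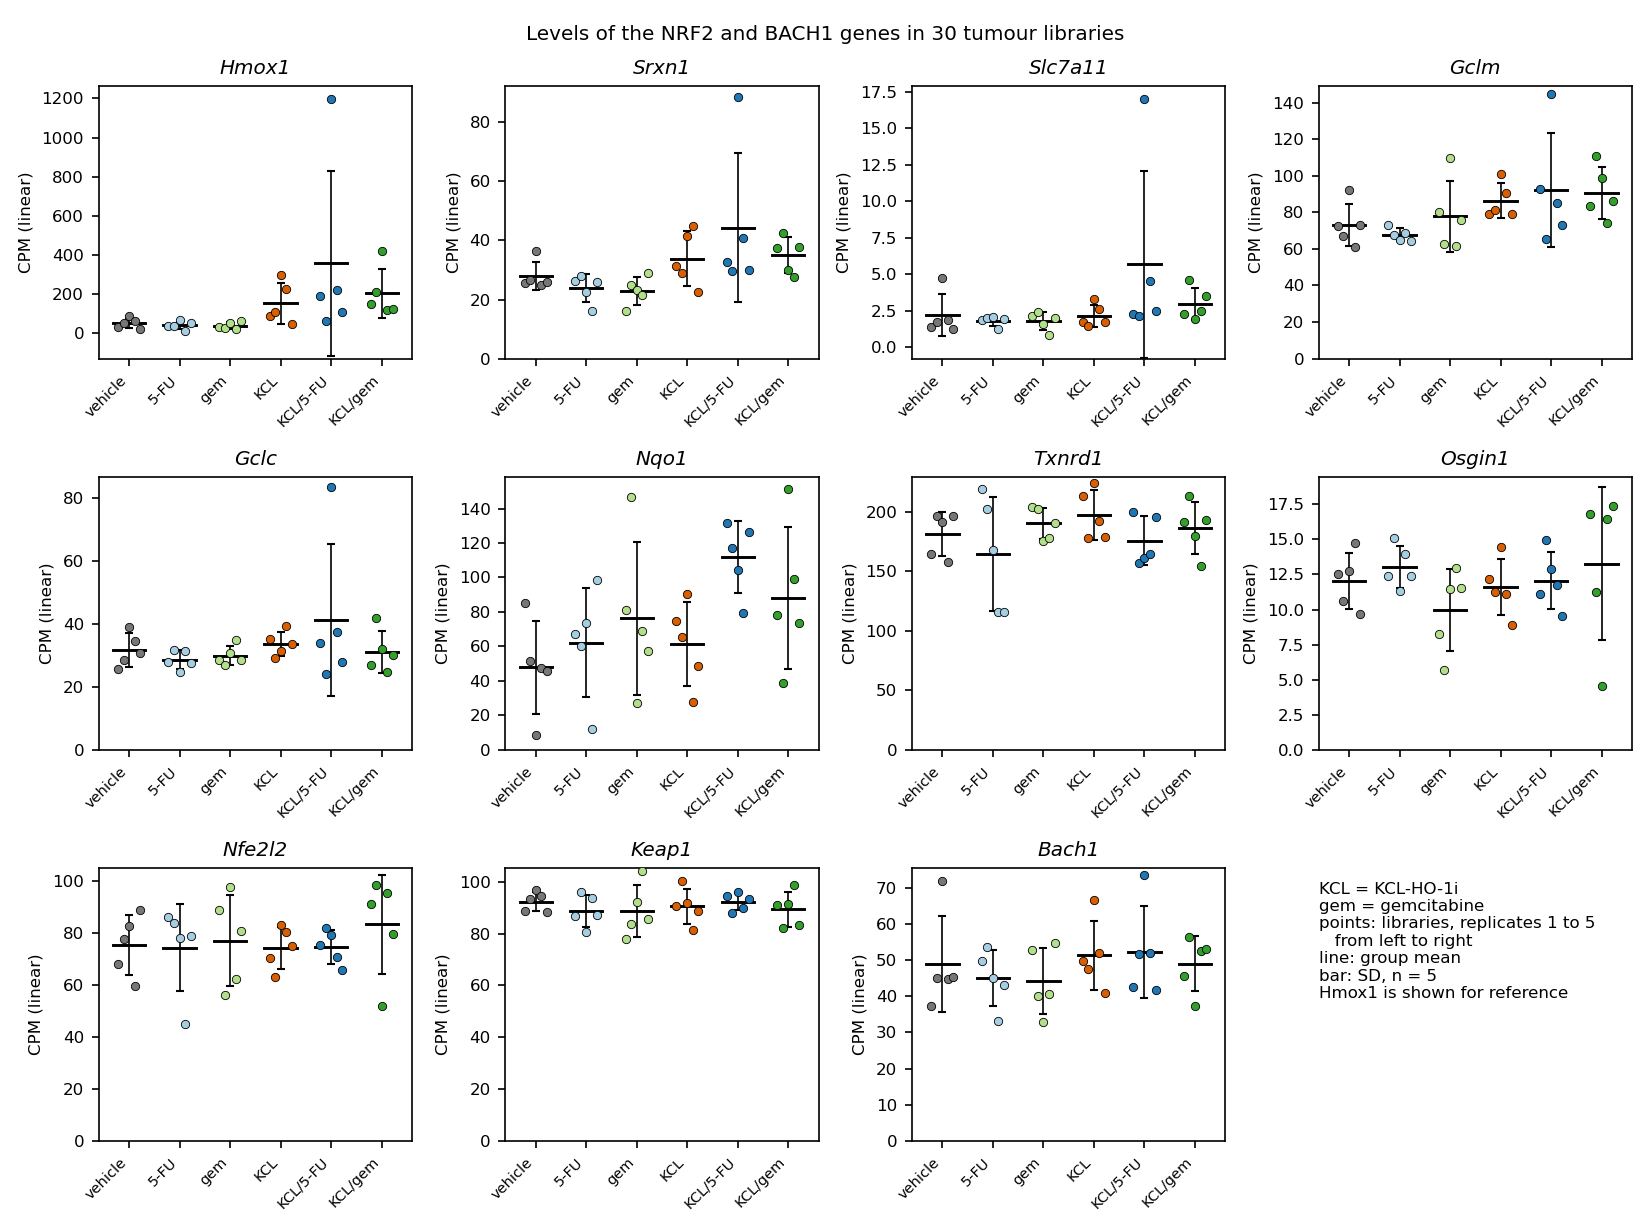
CPM of Hmox1 and the 10 members in each library (points, replicates 1 to 5 from left to right), with the group mean (line) and SD (bar, n = 5) for the 6 groups on the horizontal axis. KCL-HO-1i/5-FU replicate 3 is the highest point for Hmox1, Srxn1, Slc7a11, Gclm, Gclc and Bach1, while Keap1 stays between 78.1 and 104.1 CPM.

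Hmox1 itself had 32.9, 51.3, 84.7, 59.9 and 18.5 CPM in vehicle, 33.9, 35.2, 63.9, 12.1 and 48.9 in 5-FU and 29.8, 26.6, 50.5, 19.3 and 60.3 in gemcitabine. With the drug it had 86.4, 105.7, 299.0, 224.9 and 47.8 CPM in KCL-HO-1i alone and 188.8, 63.6, 1198, 221.7 and 107.0 in KCL-HO-1i/5-FU. In KCL-HO-1i/gemcitabine it was 149.3, 209.5, 417.6, 114.9 and 120.0. Of the 15 treated tumours, 14 were above the mean of their own background, and Hmox1 rose by a log2 fold change of 2.42 ± 0.38 (adjusted p = 0.0113, edgeR). This average was called under every alternative run but the fit with the sample code number as a covariate. There the log2 fold change was 2.27 and the adjusted p = 0.454 (edgeR). Most of these numbers occur only with or only without KCL-HO-1i, so that this fit can hardly separate the drug from the number.

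Srxn1 encodes sulfiredoxin, the enzyme that repairs overoxidised peroxiredoxins. Its level was 25.7, 26.7, 36.4, 25.0 and 25.8 CPM in vehicle, 26.2, 28.1, 22.6, 16.1 and 26.1 in 5-FU and 16.3, 24.8, 23.2, 21.5 and 28.9 in gemcitabine. With the drug it was 31.5, 28.8, 41.5, 44.9 and 22.5 CPM in KCL-HO-1i alone and 32.7, 29.7, 88.7, 40.8 and 29.9 in KCL-HO-1i/5-FU. In KCL-HO-1i/gemcitabine it was 37.5, 42.6, 29.9, 27.6 and 37.7. In the 5-FU background every treated tumour was above every 5-FU tumour, as was also so for Slc7a11, while in the other 2 backgrounds the groups overlapped. The share of all genes without overlap in that comparison was not computed. In all, 14 of 15 treated tumours were above the mean of their own background. The average log2 fold change was 0.60 ± 0.14 (unadjusted p = 0.000296, adjusted p = 0.0525, edgeR), the smallest p of the members and the 68th of the 13663 genes tested. Adjusted p-values were 0.0313 with weighted limma-voom and 0.00585 with DESeq2, and between 0.0193 and 0.122 when each library was left out. Without KCL-HO-1i/5-FU replicate 3 the log2 fold change was 0.46 (adjusted p = 0.122).

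Slc7a11 encodes the light chain of the cystine/glutamate antiporter, which supplies cystine for glutathione synthesis. It was sparsely sequenced, with 11 to 193 reads per library. Its level was 1.41, 1.74, 4.75, 1.87 and 1.26 CPM in vehicle, 1.84, 2.03, 2.05, 1.22 and 1.93 in 5-FU and 2.12, 2.42, 1.56, 0.854 and 1.99 in gemcitabine. With the drug it was 1.72, 1.42, 3.29, 2.59 and 1.73 CPM in KCL-HO-1i alone and 2.26, 2.15, 17.0, 4.53 and 2.51 in KCL-HO-1i/5-FU. In KCL-HO-1i/gemcitabine it was 2.30, 4.63, 1.9, 2.49 and 3.49. The tumour at 17.0 CPM was far above the next in its group, at 4.53 CPM, and vehicle replicate 3 was the second highest of all 30 tumours. In the 5-FU background the groups did not overlap, though narrowly, with 2.15 CPM as the lowest treated and 2.05 CPM as the highest 5-FU tumour. In the other backgrounds they overlapped. The average log2 fold change was 0.78 ± 0.28 (unadjusted p = 0.0106, adjusted p = 0.105, edgeR), with 12 of 15 treated tumours above the mean of their background. Without KCL-HO-1i/5-FU replicate 3 it was 0.45 (unadjusted p = 0.0517), and without vehicle replicate 3 it was 0.92.

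Gclm and Gclc encode the modifier and the catalytic subunit of glutamate-cysteine ligase, the rate-limiting enzyme of glutathione synthesis. Gclm had 72.5, 66.9, 92.1, 61.3 and 73.3 CPM in vehicle, 73.36, 67.8, 64.8, 68.9 and 64.3 in 5-FU and 80.1, 62.8, 109.6, 61.5 and 75.8 in gemcitabine. With the drug it had 79.3, 81.5, 101.1, 90.7 and 79.0 CPM in KCL-HO-1i alone and 92.9, 65.3, 144.9, 85.0 and 72.97 in KCL-HO-1i/5-FU. In KCL-HO-1i/gemcitabine it was 83.6, 110.8, 98.7, 74.5 and 86.4. All of these groups overlapped with their backgrounds, and 13 of 15 treated tumours were above the mean of theirs. The average log2 fold change of Gclm was 0.30 ± 0.10 (unadjusted p = 0.00525, adjusted p = 0.0815, edgeR), with an adjusted p = 0.0389 in weighted limma-voom and 0.0455 in DESeq2. Gclc differed less, by 0.22 ± 0.13 (adjusted p = 0.304, edgeR). The Gclc tumours ran from 23.9 to 83.4 CPM, and the top value, again in KCL-HO-1i/5-FU replicate 3, was apart from the second highest at 41.7 CPM. Without that tumour the differences were 0.23 for Gclm (adjusted p = 0.167) and 0.08 for Gclc (adjusted p = 0.642).

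Nqo1 encodes a quinone reductase that is widely used as a readout of NRF2 activity. It varied between tumours more than any other member but Slc7a11, with a coefficient of variation of 49.1% over the 30 tumours against 103.3% for Slc7a11. Its level was 85.1, 51.5, 8.71, 47.5 and 45.8 CPM in vehicle, 67.0, 60.0, 73.36, 11.7 and 98.6 in 5-FU and 80.8, 146.8, 26.9, 68.99 and 57.4 in gemcitabine. With the drug it was 74.8, 65.1, 90.3, 27.8 and 48.4 CPM in KCL-HO-1i alone and 131.4, 116.9, 104.1, 79.5 and 126.6 in KCL-HO-1i/5-FU. In KCL-HO-1i/gemcitabine it was 78.2, 38.5, 151.2, 99.0 and 73.6. The KCL-HO-1i/5-FU tumours were the most uniform group, while the other groups each held 1 tumour under 40 CPM. The average log2 fold change was 0.47 ± 0.28 (adjusted p = 0.317, edgeR), with 12 of 15 treated tumours above the mean of their background. Vehicle replicate 3, the lowest Nqo1 tumour of all at 8.71 CPM, was the highest of its group for Hmox1, Srxn1, Slc7a11, Gclm, Gclc and Bach1.

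Txnrd1, the cytosolic thioredoxin reductase, ran from 116.0 to 224.0 CPM, and Osgin1, a growth inhibitor induced by oxidative stress, from 4.54 to 17.4 CPM. Their average log2 fold changes were 0.06 ± 0.08 and 0.08 ± 0.14 (adjusted p = 0.692 and 0.780, edgeR), with 8 and 7 of 15 treated tumours above the mean of their background. Osgin1 was most spread in KCL-HO-1i/gemcitabine, where replicate 3 had 4.54 CPM and the others 11.3 to 17.4.

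The regulators themselves differed little between groups. Without KCL-HO-1i, Nfe2l2 had group means of 75.3 ± 11.7 CPM (vehicle), 74.3 ± 16.7 CPM (5-FU) and 77.0 ± 17.5 CPM (gemcitabine). With it, the means were 74.3 ± 8.04 CPM (no chemotherapy), 74.5 ± 6.44 CPM (5-FU) and 83.2 ± 18.9 CPM (gemcitabine), each with its SD over 5 tumours. The order of these means was not resolved, since neighbours differed by less than their SD. The average log2 fold change of Nfe2l2 was 0.03 ± 0.10 (adjusted p = 0.884, edgeR). Keap1 was the steadiest member, with a coefficient of variation of 6.76% and group means between 88.8 and 92.4 CPM, and its log2 fold change was 0.01 ± 0.04 (adjusted p = 0.902). The signs of these 2 small differences turned with the library left out. Without KCL-HO-1i, Bach1 had group means of 49.0 ± 13.3 CPM (vehicle), 45.02 ± 7.79 CPM (5-FU) and 44.4 ± 9.20 CPM (gemcitabine). With it, the means were 51.4 ± 9.52 CPM (no chemotherapy), 52.4 ± 12.8 CPM (5-FU) and 49.1 ± 7.62 CPM (gemcitabine), again with the SD. Its 2 highest tumours, at 73.6 and 72.0 CPM, were KCL-HO-1i/5-FU replicate 3 and vehicle replicate 3. The log2 fold change of Bach1 was 0.14 ± 0.11 (adjusted p = 0.438).

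**Figure D2:**
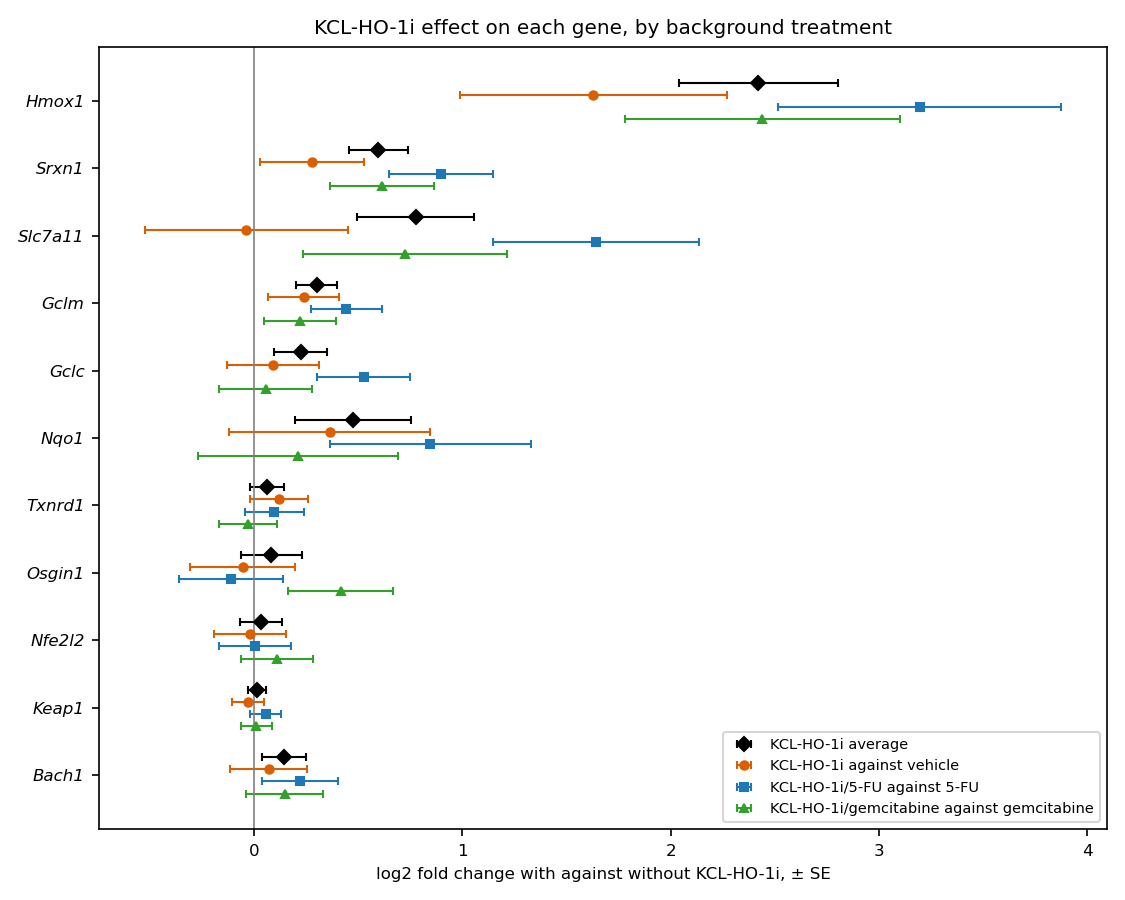
Log2 fold change (horizontal axis, points with SE bars) of Hmox1 and each member with against without KCL-HO-1i, as the average and in each of the 3 backgrounds. In the 5-FU background Hmox1 is farthest to the right (3.20), followed by Slc7a11 (1.64), Srxn1 (0.90), Nqo1 (0.85) and Gclc (0.53), and Keap1 and Nfe2l2 sit on the line at 0.

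Taken background by background, no comparison called a member at an adjusted p of 0.05, and no gene at all passed there in edgeR (0% of all genes in each). DESeq2 and weighted limma-voom called 0 members in these comparisons as well, though they did call other genes in some. With vehicle as the reference, DESeq2 called 0.875% of all genes for KCL-HO-1i alone, 3% for its combination with 5-FU and 6.49% for that with gemcitabine, and weighted limma-voom called 0%, 1.24% and 9.68%. With the chemotherapy as the reference, DESeq2 called 0.324% (5-FU) and 0.331% (gemcitabine), and 0.162% in the interaction with 5-FU. By themselves the chemotherapies gave 0 of 10 members under an unadjusted p of 0.05, both for 5-FU (3.89% of all genes) and for gemcitabine (3.83%). KCL-HO-1i alone against vehicle also gave 0 of 10 (9.43% of all genes), and Slc7a11 and Srxn1 there overlapped with vehicle. These comparisons, and those of the combinations with vehicle, share the vehicle tumours. Against vehicle, KCL-HO-1i/5-FU gave 3 of 10 (17.6% of all genes), namely Slc7a11 at 1.36 ± 0.49, Nqo1 at 1.23 ± 0.49 and Srxn1 at 0.67 ± 0.25, and KCL-HO-1i/gemcitabine gave 0 of 10 (19.8%). Leaving KCL-HO-1i/5-FU replicate 3 out brought the first count to 1 (9.6% of all genes), with Slc7a11 at 0.37, Srxn1 at 0.25 and Nqo1 at 1.25.

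Against the chemotherapy that each combination contains, the count of members under an unadjusted p of 0.05 depended on the fit and on 1 tumour. In edgeR it was 4 in the 5-FU and 1 in the gemcitabine background, in weighted limma-voom 3 in each (14.9% and 14.4% of all genes), and with that tumour, KCL-HO-1i/5-FU replicate 3, left out of the edgeR fit it was 1 in each (7.88% and 15%). KCL-HO-1i/5-FU against 5-FU gave 4 of 10 under an unadjusted p of 0.05 (11.4% of all genes), with Slc7a11 at 1.64 ± 0.49, Srxn1 at 0.90 ± 0.25, Gclc at 0.53 ± 0.22 and Gclm at 0.44 ± 0.17. The smallest adjusted p among them was 0.270 (Srxn1, edgeR). Without KCL-HO-1i/5-FU replicate 3 only Srxn1 was under that limit, at 0.48 (adjusted p = 0.585), and Slc7a11, Gclc and Gclm were at 0.65, 0.10 and 0.22. KCL-HO-1i/gemcitabine against gemcitabine gave 1 of 10 (13.5%), Srxn1 at 0.61 ± 0.25. In the interaction of KCL-HO-1i with 5-FU, 1 of 10 was under an unadjusted p of 0.05 (8.53% of all genes), Slc7a11 at 1.68 ± 0.69 (adjusted p = 0.508), and it was at 0.69 without KCL-HO-1i/5-FU replicate 3. In the interaction with gemcitabine 0 of 10 were (1.34%).

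Whether the members followed Hmox1 from tumour to tumour was asked within groups, on log2 CPM as deviations from the group means. Differences between group means therefore did not enter, while differences between tumours in their response to a treatment could. Of the 10 members, 4 were correlated with Hmox1 at an adjusted p under 0.05 (30 libraries, permutation within groups, two-sided, 30 correlations adjusted together), all 4 with r above 0. Of all genes, 9.61% had a permutation p as low as the highest among these calls (0.0146), 6.16% with r above 0. Srxn1 followed it most closely (Pearson r = 0.77, permutation p = 0.0002, adjusted p = 0.003, Spearman rho = 0.67, adjusted p = 0.0061), and 99.9% of all genes had a lower r. Slc7a11 came next (r = 0.72, adjusted p = 0.00354, rho = 0.63, adjusted p = 0.0061), then Gclm (r = 0.69, adjusted p = 0.00354, rho = 0.61, adjusted p = 0.0102). For these, 99.7% and 99.4% of all genes had a lower r. Bach1 was weaker (r = 0.49, adjusted p = 0.0438, rho = 0.42, adjusted p = 0.133), with 93.9% of all genes below it, and Gclc missed the threshold (r = 0.59, adjusted p = 0.055, rho = 0.35, adjusted p = 0.247). Nfe2l2, Txnrd1, Nqo1, Keap1 and Osgin1 had r between -0.10 and 0.17, with adjusted permutation p-values of 0.619 or more.

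Leaving out the pair of tumours farthest from the median of Hmox1, KCL-HO-1i/5-FU replicates 2 and 3, kept Srxn1 (r = 0.63, adjusted permutation p = 0.0288) and Slc7a11 (r = 0.54, adjusted p = 0.0483) past the threshold. Gclm then had r = 0.49 (adjusted p = 0.0615), Bach1 0.42 (adjusted p = 0.230) and Gclc 0.21 (adjusted p = 0.629), so that the calls of Gclm and Bach1 rest on those tumours, with r still above 0.4 for both. Leaving out KCL-HO-1i/5-FU replicate 3 alone gave r = 0.63 for Srxn1, 0.54 for Slc7a11 and 0.52 for Gclm, each still under 0.05 after adjustment, and 0.35 for Bach1 (adjusted permutation p = 0.280).

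The relation was also taken in the tumours without and with KCL-HO-1i. Here log2 CPM was not centred on the group means, and the permutation ran over all tumours of the set. Differences between the chemotherapy groups therefore enter these r. In the 15 tumours without KCL-HO-1i, 2 members were correlated with Hmox1 (3.15% of all genes at the same limit of p, 1.77% with r above 0), Slc7a11 (r = 0.68, adjusted permutation p = 0.0191, rho = 0.53, adjusted p = 0.135) and Srxn1 (r = 0.64, adjusted permutation p = 0.0334, rho = 0.54, adjusted p = 0.135). Without vehicle replicate 3 and 5-FU replicate 4, the farthest from the median of Hmox1, neither passed (r = 0.52 and 0.26, adjusted p = 0.230 and 0.691), so the relation there rests on those tumours. In the 15 tumours with KCL-HO-1i, 4 members were correlated with Hmox1 (10.6% of all genes at that limit, 6.68% with r above 0). Gclm had the highest r of the members (r = 0.89, permutation p = 3e-05, adjusted p = 0.0009, rho = 0.86, adjusted p = 0.0027), the 7th of 13662 genes, and it held without KCL-HO-1i replicate 5 and KCL-HO-1i/5-FU replicate 3 (r = 0.83, adjusted p = 0.0141). Srxn1, Slc7a11 and Gclc had r = 0.83, 0.75 and 0.73 (adjusted permutation p = 0.00354, 0.0188 and 0.0191), and without those tumours 0.50, 0.35 and 0.54 (adjusted p = 0.279, 0.629 and 0.230). With KCL-HO-1i/5-FU replicate 3 alone left out they had r = 0.65, 0.44 and 0.40 (adjusted permutation p = 0.0540, 0.324 and 0.398), and Gclm 0.78 (adjusted p = 0.0252). Gclm had r = 0.27 in the tumours without the drug (adjusted permutation p = 0.619), and whether its relation differed between tumours with and without the drug was not tested.

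**Figure D3:**
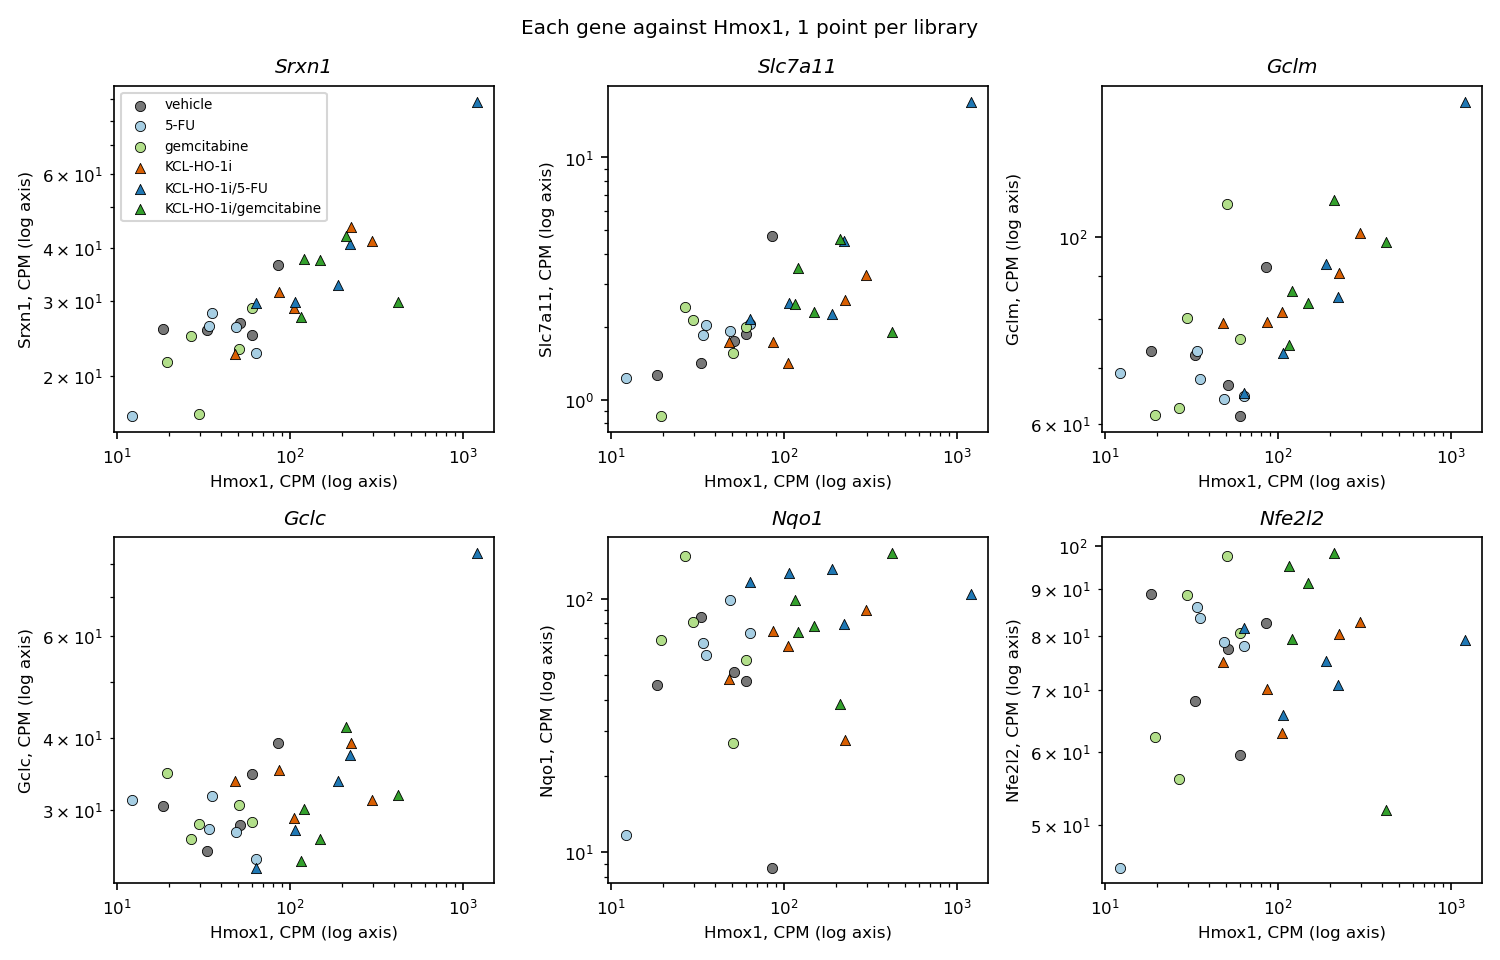
CPM of Srxn1, Slc7a11, Gclm, Gclc, Nqo1 and Nfe2l2 (vertical axes, log scale) against CPM of Hmox1 (horizontal axes, log scale), 1 point per library, circles without and triangles with KCL-HO-1i. With all groups pooled, so that the shift of Hmox1 under the drug enters, Srxn1, Slc7a11 and Gclm tend to be higher at higher Hmox1. The point farthest to the right is KCL-HO-1i/5-FU replicate 3 at 1198 CPM. Nqo1 and Nfe2l2 scatter without order.

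Among themselves the members fell into those that shared a pattern and those that did not, over the deviations of 30 libraries from their group means. Srxn1 and Slc7a11 were closest (r = 0.80), and Srxn1 was the 3rd most similar of 13662 genes to Slc7a11. Bach1 was closest to Slc7a11 (r = 0.76, 5th most similar gene), and Gclc and Gclm, the subunits of 1 enzyme, to each other (r = 0.71). Leaving out KCL-HO-1i/5-FU replicate 3 gave r of 0.64, 0.72 and 0.48 for these pairs. Nfe2l2 was closest to Bach1 (r = 0.51, and 0.53 without that tumour). Nqo1 had no member near it, Txnrd1 being the closest at r = 0.16, and Keap1 none above 0.26 (Osgin1). By the same measure the genes most like Srxn1 were Hlx, Ecm1 and Penk (r = 0.83, 0.82 and 0.82), those most like Slc7a11 were Scpep1, Frmd6 and Srxn1 (r = 0.85, 0.80 and 0.80), and those most like Nqo1 were Serpinb5, Scara5 and Pmepa1 (r = 0.91, 0.90 and 0.90). Those most like Gclm were Edar, Apcdd1 and Atp1b3 (r = 0.85, 0.85 and 0.84), and those most like Gclc were S1pr3, Hdac9 and Plxna2 (r = 0.85, 0.84 and 0.82). For Nfe2l2 they were Ino80c, Grrp1 and Nat8f3 (r = 0.80, 0.79 and 0.78), for Keap1 Daxx, Slc35c2 and Phf11d (r = 0.70, 0.69 and 0.69) and for Bach1 Snx30, Ppfibp1 and Ccser2 (r = 0.80, 0.79 and 0.77). For Txnrd1 they were Clca2, Agfg1 and Desi2 (r = 0.87, 0.82 and 0.81), and for Osgin1 Klf11, Ifrd1 and Pde4c (r = 0.72, 0.68 and 0.68). Without KCL-HO-1i/5-FU replicate 3 the r of the 3 genes fell most for Gclc (to 0.69, 0.59 and 0.65), Slc7a11 (to 0.76, 0.64 and 0.64) and Srxn1 (to 0.69, 0.75 and 0.68).

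Tissue markers moved with some members within groups, out of 66 correlations of the members and Hmox1 with 6 marker scores (mean log2 CPM of the marker list, permutation within groups, 30 libraries). Srxn1 was correlated with the endothelial score (r = 0.70, adjusted permutation p = 0.0165, rho = 0.63, adjusted p = 0.037), the adipocyte score (r = 0.58, adjusted permutation p = 0.0165, rho = 0.63, adjusted p = 0.037) and the macrophage score (r = 0.55, adjusted permutation p = 0.0404, rho = 0.53, adjusted p = 0.0871). Gclc was correlated with the luminal score in the opposite direction (r = -0.65, adjusted permutation p = 0.0165, rho = -0.59, adjusted p = 0.037). Without the 2 libraries farthest from the median of each score these r were 0.58, 0.56, 0.48 and -0.58. The share of all genes correlated with these scores at the same limit was not computed. These correlations therefore cannot be read as particular to the members. No other member passed with any score, and the r of Hmox1 was highest with the endothelial score (r = 0.51, adjusted permutation p = 0.147, rho = 0.43, adjusted p = 0.219). In KCL-HO-1i/5-FU replicate 3, the tumour with the highest Hmox1, Srxn1, Slc7a11, Gclm and Gclc, the summed luminal markers were the lowest of all 30 tumours (2291 CPM) and the fibroblast (4484 CPM) and endothelial (320.0 CPM) markers each the second highest. Vehicle replicate 3 had the lowest macrophage (158.9 CPM) and fibroblast (90.1 CPM) sums of all. KCL-HO-1i/gemcitabine replicate 2 was second highest in Gclm and Gclc. Its fibroblast (11990 CPM), endothelial (451.6 CPM) and muscle (10350 CPM) sums were the highest, and its luminal sum (2453 CPM) the second lowest. KCL-HO-1i replicate 4, second highest in Srxn1, had the highest adipocyte sum (5338 CPM). Its mitochondrial share was 9.69% of reads, where the next highest tumour had 4.54%. The part of tissue composition in the values of the members was not tested.

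The wider pathway around the members was described from 7 gene lists in the KCL-HO-1i average, beside the 0.0586% of all genes called and the 13.7% higher at an unadjusted p under 0.05. Of the heme and iron targets, which NRF2 and BACH1 also control, 2 of 8 rose at an adjusted p under 0.05, Hmox1 and Slc40a1, the iron exporter ferroportin (1.501 ± 0.26, adjusted p = 0.0149, edgeR). In that list 7 of 8 were higher at an unadjusted p under 0.05 with a median log2 fold change of 0.51, among them the ferritin chains Fth1 at 0.80 ± 0.21 and Ftl1 at 0.51 ± 0.14, the heme transporter Slc48a1 at 0.51 ± 0.14 and Blvrb, a biliverdin reductase, at 0.47 ± 0.12. In the same comparison 6 of 7 macrophage markers were higher at that limit, with a median of 0.78. The part of macrophage and other tissue content in the values of this list was not tested.

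Outside that list no gene of the 7 lists was called. Among the detoxification genes 5 of 10 tested were higher at an unadjusted p under 0.05 (median 0.51), namely the efflux pumps Abcc4 at 1.92 ± 0.54 and Abcc3 at 1.11 ± 0.24, Ces2g, a carboxylesterase, at 1.86 ± 0.75, Ugt1a6a, a glucuronosyltransferase, at 1.81 ± 0.61, and the carbonyl reductase Cbr3 at 0.75 ± 0.19. Among the glutathione genes 3 of 15 tested were (median 0.11), Gpx3, the extracellular glutathione peroxidase, at 1.65 ± 0.46, and the transferases Gstm2 at 1.60 ± 0.45 and Gstm1 at 1.15 ± 0.27. Among thioredoxin and peroxide genes 3 of 13 were (median 0.13), the superoxide dismutases Sod3 at 1.84 ± 0.57 and Sod1 at 0.25 ± 0.08, and the peroxiredoxin Prdx5 at 0.26 ± 0.09. Among the genes of NADPH supply 3 of 6 were (median 0.25), Me1 at 0.42 ± 0.16, G6pdx at 0.26 ± 0.12 and Idh1 at 0.25 ± 0.12. Log2 fold changes were below 0 for 1 of 10 detoxification, 5 of 15 glutathione, 4 of 13 thioredoxin and peroxide and 1 of 6 NADPH genes. The lowest was Mgst2 at -0.41 ± 0.48, and none was lower at an unadjusted p under 0.05. Gpx3, Sod3, Ces2g and other genes of these lists are also expressed in fat, vessels or stroma, whose markers were higher in the same comparison, and the part of those tissues was not tested.

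Of the 10 further regulators (small Maf proteins, Nfe2l1, Bach2, Cul3, Rbx1, Sqstm1, Btrc and Gsk3b) 0 were under an unadjusted p of 0.05, and their median was 0.02. The list of targets of ATF4, a stress factor that shares Slc7a11 with NRF2, held Atf4 itself and had a median of -0.18. Of its 9 genes, 2 were lower at an unadjusted p under 0.05. Of all genes, 23% were under that limit in either direction and 13.7% were under it and higher. The rest of the 23%, the genes that were lower, is the share that matches this count. The 2 were asparagine synthetase Asns at -0.53 ± 0.15 and Phgdh, the first enzyme of serine synthesis, at -0.58 ± 0.18. Their adjusted p were 0.0558 and 0.0653 (edgeR).

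**Figure D4:**
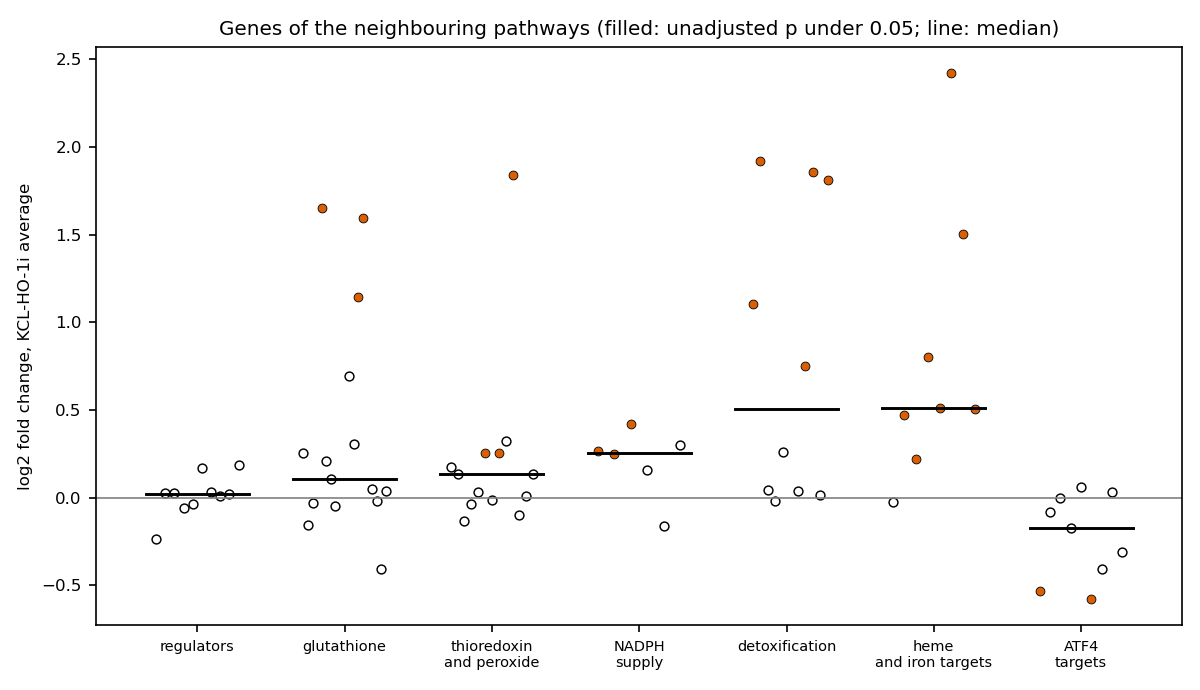
Log2 fold change in the KCL-HO-1i average (vertical axis) of each tested gene in the 7 pathway lists (horizontal axis), filled where the unadjusted p was under 0.05, with a line at the list median. The heme and iron and the detoxification lists have medians of 0.51, and the ATF4 targets are the list with a median below 0 (-0.18).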

How the data were processed

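RNA sequencing libraries had been made from total RNA with a directional kit. Per the submitters' processing notes and the methods of the study, the authors used FastQC 0.11.9, STAR 2.7.9a, Salmon 1.9.0 with tximport, and DESeq2, on mm10. The annotation release is not given in the sources used here. The methods of the study call the Salmon table TPM counts. The values deposited by the authors have no common total (10067577 to 13622264 per library) and 38.0% of them are not whole, so they were treated as estimated counts, and any length scaling in their making was not tested. They were rounded to whole numbers. These totals limit the precision of low genes such as Slc7a11.

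Genes were filtered with filterByExpr (minimum count 10) and fitted with edgeR 4.0.16 in R 4.3.3 (TMM, robust quasi-likelihood, 6 group means, all 30 libraries), with Benjamini-Hochberg adjustment over 13663 genes and a threshold of 0.05. The KCL-HO-1i average is the mean of its 3 within-background contrasts, and 10 contrasts were made. The common biological coefficient of variation was 0.401. Correlations used log2 CPM (prior count 2) and 100000 permutations, made with numpy in Python. DESeq2 1.42.0, limma-voom with sample quality weights (limma 3.58.1), RLE scaling, other filters and a replicate block were alternatives. A prior count of 0.5, leaving out each library and the sample code number as a covariate were others. The labels hold 13 such numbers, of unstated meaning, and most occur only with or only without KCL-HO-1i. Log2 fold changes outside the KCL-HO-1i average, correlations between genes without 1 tumour, and outlying tumours on the CPM scale were added after the data were seen. Replicate numbers did not pair the tumours, with a mean correlation of same-numbered deviations of 0.00284 over 75 pairs.

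The members and gene lists were chosen with earlier results of these data known. The members and Hmox1 are named whatever their values, genes of a pathway list where called or among its 3 highest or 3 lowest log2 fold changes, and for each member the 3 genes of highest Pearson r with it. Further pathway genes with an unadjusted p under 0.05 were named after their values were seen. The fit was tested on simulated data.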

Additional observations from a re-analysis of the deposited data

Results flagged for a closer look

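In each of 66 sets of 5 tumours (the 10 members and Hmox1 in 6 groups) the highest and lowest tumour was compared with the others by its gap over the range on log2 CPM, and 7 stood apart, where chance gives about 1 in 20. Of these, 6 lay in vehicle replicate 3 and 5-FU replicate 4. Vehicle replicate 3 was low in Nqo1 (8.707 CPM, the others 45.8 to 85.1) and high in Srxn1 (36.41 CPM, the others 25.0 to 26.7) and Slc7a11 (4.749 CPM, the others 1.26 to 1.87). 5-FU replicate 4 was low in Nfe2l2 (44.96 CPM, the others 77.95 to 85.99), Nqo1 (11.73 CPM, the others 60.0 to 98.6) and Slc7a11 (1.222 CPM, the others 1.84 to 2.05). Its Hmox1, at 12.1 CPM, was the lowest of all 30 tumours, as was its Srxn1, at 16.1 CPM. The last was Srxn1 in KCL-HO-1i/5-FU replicate 3 (88.7 CPM, the others 29.7 to 40.8). On CPM without the log, 9 stood apart. Both low Nqo1 tumours dropped out, and Bach1 in vehicle replicate 3 (72.0 CPM) and Slc7a11, Gclc and Hmox1 in KCL-HO-1i/5-FU replicate 3 (17.0, 83.4 and 1198 CPM) came in.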

How the results depend on the processing

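In the KCL-HO-1i average the count of members called was 0 in edgeR and 2 with weighted limma-voom and with DESeq2 (Srxn1 and Gclm in both), where the count of all genes called was 8, 267 and 1139. It was between 0 and 1 when each library was left out, the 1 being Srxn1 in each of 7 such fits. In all other comparisons the count of members called was 0 under every alternative run. The sign turned for Keap1 with the sample code number as a covariate (-0.0911) and in 10 fits without a library (log2 fold change -0.0155 to 0.0204). It also turned for Nfe2l2 in 4 fits without a library (-0.0268 to 0.0641). The cause was not tested. With the sample code number as a covariate, Bach1 (0.53, unadjusted p = 0.0188) and Txnrd1 (0.49, unadjusted p = 0.00364) were higher than without it, at an adjusted p = 0.454 and 0.422 (edgeR). That fit can hardly separate the drug from the number. The replicate number as a block, which pairs no tumours by its meaning, left 0 members called, with Srxn1 at 0.58 (adjusted p = 0.107), and 12 genes called in all instead of 8.

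The count of members correlated with Hmox1 within groups went from 4 to 2 without the 2 libraries farthest from the median of Hmox1 (Srxn1 and Slc7a11) and was between 3 and 5 when each library was left out. Without KCL-HO-1i it went from 2 to 0 with Spearman rho and 0 without the 2 farthest libraries, and was between 0 and 3 without each library, with 0 when vehicle replicate 3 or gemcitabine replicate 4 was out. With KCL-HO-1i it went from 4 to 2 with Spearman rho (Srxn1 and Gclm) and 1 without the 2 farthest libraries (Gclm), and was between 1 and 5 without each library. Correlations of members with marker scores numbered 4, 3 with Spearman rho and 4 with a prior count of 0.5, with no share of all genes computed beside them. Low counts limit Slc7a11, and counting error is only part of the spread between tumours.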
